A study of Mus musculus with 15 samples.

Results

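The step from CT4 to CT8 takes the mouse liver from the early to the late subjective day, and it was followed here in ribosome-protected mRNA fragments. The step compares the 2 ribosome profiling libraries named CT4 with the 2 named CT8, out of 14 libraries at 7 circadian times. Each library came from the whole liver of a wild-type male C57BL/6N mouse aged 8 to 10 weeks, and each time had 2 mice. All mice, at CT4, CT8 and the other times alike, had been kept for 2 weeks with 12 h of light and 12 h of darkness a day and then for 24 h in constant darkness before collection began. Times were 4 h apart from CT0 to CT24, and CT counts the hours of the internal day. Free RNA was digested with RNase I, and the fragments that ribosomes protected were sequenced. A footprint count therefore follows both the amount of an mRNA and the number of ribosomes on it, and these cannot be told apart here, because RNA-seq was not analysed. In whole liver, fewer cells of a type and less RNA per cell cannot be told apart either.

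The liver clock is a loop of transcription and translation. BMAL1 (gene Arntl) with CLOCK or NPAS2 binds E-boxes (CACGTG) and activates the Per, Cry, Nr1d, Bhlhe40, Bhlhe41 and Ciart genes, whose proteins repress that activator or the Arntl gene itself. The same activator drives Dbp and Tef, whose proteins bind D-boxes (TTANGTAA), where NFIL3 acts as a repressor. REV-ERB proteins (Nr1d1, Nr1d2) repress and ROR proteins activate genes with a RORE site, among them Arntl, Npas2 and Nfil3. In mouse liver these activities are known to pass on to lipid, glucose and drug metabolism.

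For each of 28167 RefSeq transcripts, the reads in its untranslated regions (5′UTR and 3′UTR) and its coding sequence (CDS) were added. The 4 libraries of the step held 58626687 and 60931280 counts at CT4 and 87480771 and 82597296 at CT8, within a range of 40593197 to 90458783 over all 14. Levels are given as CPM, the count scaled to a library of 1000000 reads with TMM factors, and changes as log2 fold changes of CT8 over CT4 with a standard error (SE, n = 2 mice at each time). A mean of at least 10 counts over the 14 libraries was reached by 17299 transcripts, and these were tested with edgeR's quasi-likelihood F test and Benjamini-Hochberg adjustment. The 10 hepatocyte markers had summed levels of 46033 to 53725 CPM in the 4 libraries. Markers of other cell types were low and none was called: those of Kupffer cells and macrophages summed to 114 to 147 CPM, those of endothelial cells to 169 to 184 CPM, those of stellate cells and fibroblasts to 148 to 182 CPM, those of cholangiocytes to 12.9 to 20.5 CPM, those of small intestine to 44.0 to 51.6 CPM, those of pancreatic acinar cells to 6.99 to 10.4 CPM (up to 4133 CPM in a library of another time), and those of neutrophils and lymphocytes each to less than 1 CPM. Erythroid markers summed to 117 and 80.8 CPM at CT4 and to 84.3 and 56.6 CPM at CT8, and the 5 tested had negative log2 fold changes with a median of -0.37; their part in the results was not tested. Camp, Prss1, Reg3b, Lct, Sis and Fabp6 were at 0 in all 4 libraries.

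Between CT4 and CT8, 74 genes changed, 36 to a higher (0.310%) and 38 to a lower level (0.327%). Together these are 0.637% of the 11621 genes tested, with the transcript of the highest mean count standing for each gene. When only 1 transcript per gene was scaled, tested and adjusted for, 61 passed in place of the 74, 30 higher and 31 lower. In transcripts, 127 of 17299 passed (0.734%), 69 higher (0.399%) and 58 lower (0.335%), and 1156 had an unadjusted p under 0.05. The rises ran from 0.79 to 6.03 on the log2 scale with a median of 1.60, and the falls from -0.75 to -3.57 with a median of -1.35. Over all genes tested the median log2 fold change was -0.0067, and 49.2% of the values were positive. In each of the 74 genes both CT8 libraries lay on the same side of both CT4 libraries, which was also so for 18.9% (above) and 19.8% (below) of all genes tested. The genes were called from these same libraries, so this is a description and no support of its own. With scaling by the total count, which moved the median of all transcripts by -0.23 on the log2 scale, 76 transcripts passed, 33 higher and 43 lower. The number of calls moved when single mice were left out: leaving out 1 CT4 library gave 16 higher and 13 lower genes (without replicate 1) or 12 and 9 (without replicate 2), and leaving out 1 CT8 library gave 12 and 10 (without replicate 1) or 36 and 22 (without replicate 2, where only the lower count moved). In these fits the lone library was assumed to vary like those of the other times.

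**Figure D1:**
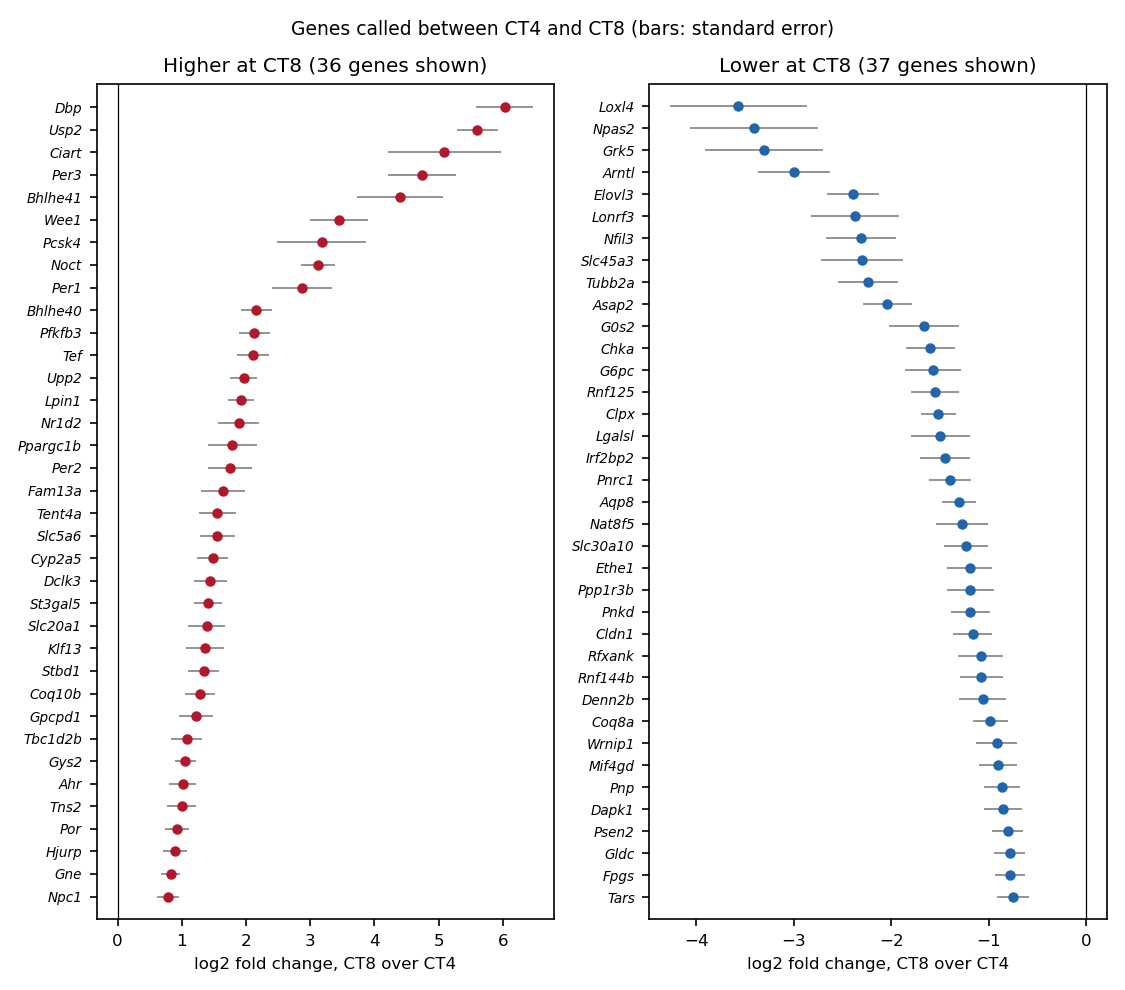
Log2 fold change of CT8 over CT4 for genes called by edgeR (points, with the SE as a bar), 36 higher genes on the left and 37 of the 38 lower genes on the right, ordered by size. The rises reach 6.03 (Dbp) and the falls -3.57 (Loxl4).

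Sites of the clock factors in the promoters of called genes are shown first. Among the genes with large changes, Ciart, Per3, Bhlhe41 and Arntl had such a site in the windows searched. None was found for Dbp, Usp2, Noct, Wee1, Npas2, Loxl4 or Grk5, and whether their promoters were among those searched is not given here. The RefSeq promoter table (build GRCm38.p6, 250 bases before to 50 bases after each start) held 26 of the 36 higher genes and 33 of the 38 lower genes, some with several starts. The 30-base windows below are read 5′ to 3′ along the gene's strand, with the E-box in capitals.
Per1 (chr11:69098771-69098800, plus strand): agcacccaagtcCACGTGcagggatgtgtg
Ciart (chr3:95882327-95882356, minus strand): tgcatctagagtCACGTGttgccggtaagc
Ciart (chr3:95882269-95882298, minus strand): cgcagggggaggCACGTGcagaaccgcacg
Bhlhe41 (chr6:145865556-145865585, minus strand): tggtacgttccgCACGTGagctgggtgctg
Tef (chr15:81802534-81802563, plus strand): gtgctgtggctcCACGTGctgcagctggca
Tef (chr15:81811264-81811293, plus strand): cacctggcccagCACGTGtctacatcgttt
Pfkfb3 (chr2:11502126-11502155, minus strand): cacccttctctcCACGTGaaagggggctgg
Coq10b (chr1:55052680-55052709, plus strand): ggcggcactggaCACGTGcgtcagcctagc
Slc20a1 (chr2:129198739-129198768, plus strand): ggctcggcaggtCACGTGgggcgcagaacc
The windows lie upstream of the start, with the E-box at 166 bases before it in Per1, 116 and 58 in Ciart, 153 in Bhlhe41, 127 and 138 in Tef (each from its own start), 53 in Pfkfb3, 78 in Coq10b and 22 in Slc20a1. Ciart holds an E-box at 44 bases and Slc20a1 an E-box at 175 bases as well.

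An E-box, searched as CACGTG on both strands (the word reads the same on each), stood in 8 of 33 promoters of higher genes (24.24%) and in 4 of 40 promoters of lower genes (10%, those of Aqp8, Lonrf3, Psen2 and Tars). Among promoters of all genes tested the share was 9.923%, and 7.15% of all promoters listed held one. A D-box, searched as TTANGTAA on both strands, was found in 2 promoters of higher genes (6.061%) and in 2 of lower genes (5%), against 1.629% of the promoters of tested genes. The other lower gene was Slc45a3. Those of Per3, G6pc and Coq10b are shown with the D-box in capitals, as it reads along the gene; in Coq10b the match is on the opposite strand.
Per3 (chr4:151044852-151044881, minus strand): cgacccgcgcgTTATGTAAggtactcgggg
Per3 (chr4:151044805-151044834, minus strand): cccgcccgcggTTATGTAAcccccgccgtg
G6pc (chr11:101367543-101367572, plus strand): gttttgctattTTACGTAAatcaccctgaa
Coq10b (chr1:55052597-55052626, plus strand): cgtcacgaagaTTACATAAgtggcagactc
A RORE was found in 1 promoter of a lower gene, that of Arntl, beginning 27 bases after the start, and in 0.2172% of the promoters of tested genes.
Arntl (chr7:113207528-113207556, plus strand): ggaaggcagAAAGTAGGTCAgggacggag
The CRE (TGACGTCA) was found in 1 promoter, that of the lower gene Tubb2a (2.5% of the promoters of lower genes, against 2.949% of those of tested genes). The heat shock element was found in none of the called genes' promoters and in 0.5095% of those of tested genes. These shares are a description of the letters in a 300-base window.

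Among the clock repressors, 7 of 10 rose between CT4 and CT8 and none fell, beside 0.310% (higher) and 0.327% (lower) of all genes tested. The median of the list was 2.02 on the log2 scale, beside -0.0067 over all genes tested. The count was 5 without CT4 replicate 1, 3 without CT4 replicate 2, 2 without CT8 replicate 1 and 6 without CT8 replicate 2. Ciart, a repressor of the BMAL1 complex also called CHRONO, stood at 0 and 0.133 CPM in the CT4 libraries (0 and 7 counts) and at 2.74 and 1.53 CPM in the CT8 libraries (219 and 97 counts). Its change was 5.08 ± 0.880 (edgeR adjusted p = 0.00714), a size that depends on how the fit treats the library at 0. Per3, a period gene, had 4 and 4 counts at CT4 and 161 and 110 counts at CT8, or 0.0620 and 0.0759 CPM against 2.01 and 1.74 CPM. This was a rise of 4.74 ± 0.530 (edgeR adjusted p = 6.19e-05). Per1 stood at 0.511 and 0.398 CPM at CT4 and at 4.23 and 2.48 CPM at CT8. Per2 stood at 2.00 and 0.683 CPM at CT4 and at 4.34 and 4.82 CPM at CT8. The period genes thus all rose, with no overlap between the times, by 2.87 ± 0.465 for Per1 (7.32-fold, edgeR adjusted p = 0.00356) and by 1.75 ± 0.340 for Per2 (3.36-fold, adjusted p = 0.0188).

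Bhlhe41 and Bhlhe40, which encode the repressors DEC2 and DEC1, rose as well. Bhlhe41 stood at 0.294 and 0.133 CPM at CT4 and at 6.57 and 2.67 CPM at CT8, a change of 4.40 ± 0.674 (edgeR adjusted p = 0.00228) with the first CT8 library well above the second. The transcript used is 1 of 6 tested for Bhlhe41, of which 2 were called, and its annotated CDS has 401 bases and its 3′UTR 5575. Most reads of this transcript lay in that annotated 3′UTR. The CDS held 0 of 19 and 5 of 7 counts at CT4 and 80 of 525 and 49 of 169 counts at CT8. With reads of this CDS alone the change did not pass (4.23 ± 1.38, edgeR adjusted p = 0.329). Whether the 3′UTR reads belong to the coding sequence of another Bhlhe41 transcript was not tested. Bhlhe40 stood at 8.44 and 4.66 CPM at CT4 and at 33.8 and 24.9 CPM at CT8, a change of 2.16 ± 0.240 (edgeR adjusted p = 6.19e-05). Per length of coding sequence, Bhlhe40 had 21.2 CPM per kilobase at CT8, against 0.459 for Per3, 0.798 for Per1, 1.18 for Per2 and 1.81 for Ciart. Nr1d2, the gene of REV-ERBβ, stood at 4.42 and 3.58 CPM at CT4 and at 17.5 and 12.1 CPM at CT8 (log2 fold change 1.89 ± 0.315, edgeR adjusted p = 0.00494). The other 3 repressors did not pass. Nr1d1, the gene of REV-ERBα, stood at 38.0 and 19.4 CPM at CT4 and at 69.8 and 49.5 CPM at CT8 (1.05 ± 0.340, adjusted p = 0.313). Cry2 had a log2 fold change of 0.99 ± 0.229 (edgeR adjusted p = 0.0578), with all CT8 values above those of CT4. Cry1 alone of the 10 pointed down, with 4.52 and 4.63 CPM at CT4 and 3.35 and 2.17 CPM at CT8 (-0.72 ± 0.257, adjusted p = 0.436).

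The clock activators moved the other way: 2 of 5 fell and none rose, beside 0.327% and 0.310% of all genes tested. Leaving out any of the 4 libraries left 1 call. Arntl, the gene of BMAL1, stood at 6.43 and 7.66 CPM at CT4 and at 0.463 and 1.33 CPM at CT8. It fell by 3.00 ± 0.371 on the log2 scale, which is 7.99-fold (edgeR adjusted p = 0.000182). Npas2, whose product can replace CLOCK as the partner of BMAL1, stood at 2.34 and 1.73 CPM at CT4 and at 0.175 and 0.206 CPM at CT8, a change of -3.41 ± 0.653 (edgeR adjusted p = 0.0193). The other members did not pass. Clock itself stood at 9.34 and 8.53 CPM at CT4 and at 6.15 and 6.67 CPM at CT8 (-0.48 ± 0.213, adjusted p = 0.687). Rora, which encodes RORα, had a log2 fold change of 0.15 ± 0.204 (-0.068 with scaling by the total count).

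The factors that bind D-boxes moved in opposite directions. Dbp had the largest rise of all 74 genes. It stood at 0.806 and 0.379 CPM at CT4 (52 and 20 counts) and at 51.4 and 27.7 CPM at CT8 (4107 and 1751 counts), which is 65.3-fold higher (log2 fold change 6.03 ± 0.446, edgeR adjusted p = 7.55e-07). Tef stood at 3.64 and 2.43 CPM at CT4 and at 15.6 and 10.6 CPM at CT8 and rose by 2.11 ± 0.243 (edgeR adjusted p = 8.81e-05). Nfil3, the repressor at the same sites, stood at 9.17 and 13.2 CPM at CT4 and at 1.15 and 3.40 CPM at CT8 and fell by 2.31 ± 0.355 (edgeR adjusted p = 0.00228). Hlf, the remaining PAR bZIP activator, had 5.61 and 4.44 CPM at CT4 and 8.90 and 8.40 CPM at CT8 without passing (0.78 ± 0.244, adjusted p = 0.280).

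**Figure D2:**
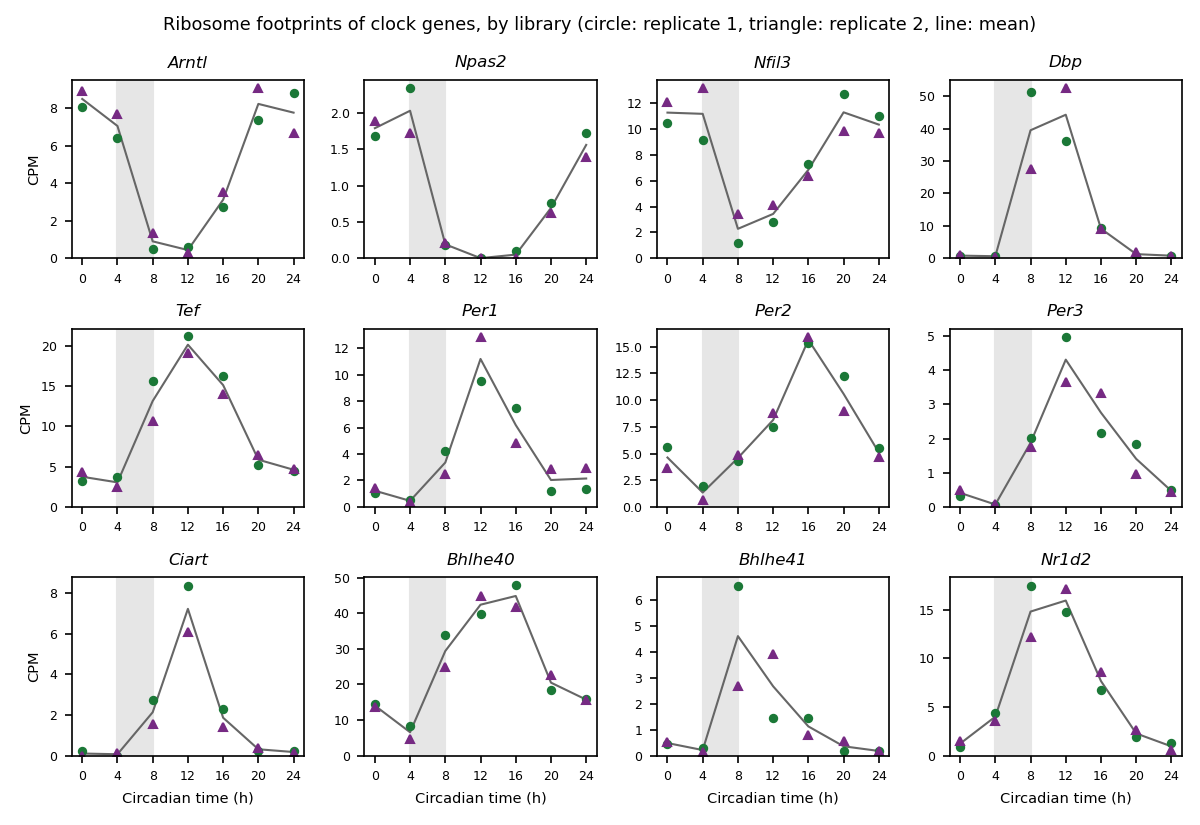
CPM against circadian time in h for 12 clock genes called between CT4 and CT8, with a circle for replicate 1, a triangle for replicate 2 and a line through the means; the grey band marks the step. Arntl, Npas2 and Nfil3 drop inside the band and the other 9 genes climb, Dbp from below 1 CPM to 51.4 and 27.7 CPM.

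Of 14 genes listed as clock outputs, 4 rose and none fell, beside 0.310% (higher) and 0.327% (lower) of all genes tested. The list median was 0.39. Usp2, which encodes a deubiquitinase, stood at 0.217 and 0.265 CPM at CT4 (14 and 14 counts) and at 15.1 and 8.32 CPM at CT8 (1206 and 526 counts), and had the smallest p of all transcripts (log2 fold change 5.60 ± 0.322, edgeR adjusted p = 5.61e-08). Noct, the gene of nocturnin, stood at 0.914 and 0.531 CPM at CT4 and at 6.20 and 6.55 CPM at CT8 (3.12 ± 0.268, edgeR adjusted p = 5.99e-06). Wee1, the kinase that restrains entry into mitosis, stood at 0.124 and 0.474 CPM at CT4 and at 4.08 and 2.29 CPM at CT8 (3.45 ± 0.455, adjusted p = 0.000377). Lpin1, a phosphatidate phosphatase and nuclear coregulator, stood at 6.40 and 5.90 CPM at CT4 and at 21.4 and 25.2 CPM at CT8 (1.92 ± 0.199, adjusted p = 5.80e-05). In each of these genes the CT8 values lay well clear of the CT4 values.

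Genes of sugar metabolism changed in both directions. Of 15 tested members of the list of glucose output and glycogen genes, 1 rose and 2 fell. Among all genes tested 0.310% rose and 0.327% fell. The list median was -0.08. Gys2, liver glycogen synthase, stood at 54.8 and 49.6 CPM at CT4 and at 123 and 93.8 CPM at CT8 (log2 fold change 1.06 ± 0.165, edgeR adjusted p = 0.00274). G6pc, the catalytic subunit of glucose-6-phosphatase, stood at 150 and 142 CPM at CT4 and at 37.4 and 60.5 CPM at CT8 (-1.57 ± 0.285, edgeR adjusted p = 0.0105). Ppp1r3b, which targets protein phosphatase 1 to glycogen, stood at 42.1 and 26.7 CPM at CT4 and at 13.9 and 16.3 CPM at CT8 (-1.19 ± 0.239, adjusted p = 0.0232). Among called genes outside the list, chosen here after their values were seen, Pfkfb3, whose enzyme makes the glycolytic activator fructose-2,6-bisphosphate, stood at 1.56 and 1.02 CPM at CT4 and at 5.58 and 5.85 CPM at CT8 (2.13 ± 0.237, edgeR adjusted p = 6.19e-05). Stbd1, a glycogen-binding protein, rose by 1.34 on the log2 scale.

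Among 17 tested fatty acid synthesis genes, whose median was -0.04, only Elovl3 was called (lower, beside 0.327% of all genes tested). It encodes an elongase of very long-chain fatty acids, and stood at 211 and 301 CPM at CT4 and at 37.4 and 60.3 CPM at CT8, a change of -2.39 ± 0.265 (edgeR adjusted p = 6.19e-05). None of 21 genes of fatty acid oxidation and ketogenesis was called (median 0.01). Ppara, the nuclear receptor that activates this pathway, stood closest to the threshold, at 38.7 and 39.5 CPM at CT4 and 87.2 and 53.7 CPM at CT8 (0.85 ± 0.195, adjusted p = 0.054). A second Ppara transcript with slightly fewer reads passed (adjusted p = 0.0496). Cpt1a, which brings long-chain fatty acids into mitochondria, had a log2 fold change of 0.69 ± 0.159 (edgeR adjusted p = 0.0557). None of 25 genes of cholesterol synthesis and uptake was called either. Their median was 0.40, and 20 of the 25 values were positive, against 49.2% of all genes tested. Outside the list, Npc1, which carries cholesterol out of lysosomes, rose by 0.79. In the bile acid list, with 15 genes and a median of 0.21, Cyp7a1, the rate-limiting enzyme of bile acid synthesis, had 17.4 and 11.7 CPM at CT4 and 22.6 and 36.8 CPM at CT8 (1.03 ± 0.266, adjusted p = 0.113). Cyp8b1, which directs synthesis to cholic acid, pointed down (-0.78 ± 0.199, adjusted p = 0.0999), and no member of the list passed.

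In the drug metabolism list 3 of 18 genes rose and none fell, beside 0.310% (higher) and 0.327% (lower) of all genes tested. The list median was 0.0008. Cyp2a5, a cytochrome P450, stood at 51.1 and 52.3 CPM at CT4 and at 161 and 127 CPM at CT8 (log2 fold change 1.48 ± 0.238, edgeR adjusted p = 0.00347). Its sequence is close to that of its neighbour Cyp2a4, and how shared reads were counted is not given in the sources used here. Ahr, the aryl hydrocarbon receptor, stood at 11.4 and 8.19 CPM at CT4 and at 20.4 and 19.1 CPM at CT8 (1.01 ± 0.205, edgeR adjusted p = 0.0249). Por, the reductase that passes electrons to the microsomal P450 enzymes, stood at 59.3 and 73.7 CPM at CT4 and at 129 and 123 CPM at CT8 (0.93 ± 0.194, adjusted p = 0.0306).

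Further named genes followed from size alone. Upp2, a uridine phosphorylase, had 56.1 and 55.1 CPM at CT4 and 240 and 194 CPM at CT8 (1.96 ± 0.211, edgeR adjusted p = 6.19e-05). Pcsk4, a proprotein convertase, stood at 0.263 and 0.398 CPM at CT4 and at 4.23 and 1.74 CPM at CT8 (3.18 ± 0.693, adjusted p = 0.0394, and 0.0608 with CDS reads alone). Among the lower genes, Loxl4, a lysyl oxidase, had the largest fall. It stood at 5.22 and 6.83 CPM at CT4 and at 0.288 and 0.743 CPM at CT8 (-3.57 ± 0.699, edgeR adjusted p = 0.0193). Grk5, a kinase of G protein-coupled receptors, stood at 3.66 and 6.79 CPM at CT4 and at 0.250 and 0.822 CPM at CT8 (-3.31 ± 0.605, adjusted p = 0.0113). Tubb2a, a β-tubulin, stood at 53.0 and 50.3 CPM at CT4 and at 7.13 and 14.8 CPM at CT8 (-2.24 ± 0.307, edgeR adjusted p = 0.000614). Among these genes, falls of more than 2 on the log2 scale were also those of Slc45a3 (4.38 and 6.26 against 1.06 and 1.09 CPM) and Asap2, an ARF GTPase-activating protein (6.85 and 6.52 against 1.58 and 1.68 CPM). Smaller falls were those of Chka, choline kinase α (19.9 and 24.2 against 7.10 and 7.43 CPM), and Rnf125, a ubiquitin ligase (51.6 and 64.0 against 20.8 and 18.6 CPM). G0s2, an inhibitor of the triglyceride lipase ATGL, stood at 14.3 and 28.1 CPM at CT4 and at 5.59 and 7.75 CPM at CT8. Coq8a, which coenzyme Q synthesis requires, stood at 212 and 184 CPM at CT4 against 120 and 80.6 CPM at CT8 (-0.98 ± 0.181, edgeR adjusted p = 0.0118).

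The remaining called genes are given by their log2 fold changes. On the higher side were Ppargc1b, the coactivator PGC-1β (1.79), Fam13a (1.64), Tent4a, a poly(A) polymerase (1.55), Slc5a6, a transporter of biotin and pantothenate (1.55), Dclk3, a kinase (1.45), and St3gal5, the synthase of ganglioside GM3 (1.41). Smaller rises were those of Slc20a1, a phosphate transporter (1.39), Klf13, a zinc finger transcription factor (1.36), Coq10b, a coenzyme Q-binding protein (1.29), Gpcpd1, a glycerophosphocholine phosphodiesterase (1.22), Tbc1d2b (1.08), Tns2 (1.00), Hjurp, a chaperone of centromeric histone (0.89), and Gne, the first enzyme of sialic acid synthesis (0.83). Gpcpd1 has the same counts in all libraries as another transcript that the reference table pairs with no symbol.
On the lower side were Lonrf3 (-2.37), Clpx, a subunit of the mitochondrial ClpXP protease (-1.52), Lgalsl (-1.50), Irf2bp2, a corepressor (-1.45), Pnrc1 (-1.40), Aqp8, an aquaporin (-1.31), Nat8f5 (-1.27) and Slc30a10, a manganese exporter (-1.23). Ethe1, a mitochondrial persulfide dioxygenase (-1.20), Pnkd (-1.19), Cldn1, a tight junction claudin (-1.16), Rfxank (-1.08), Rnf144b (-1.08), Denn2b (-1.06), Wrnip1 (-0.92), Mif4gd (-0.90), Pnp, purine nucleoside phosphorylase (-0.87), and Dapk1, a kinase (-0.85), followed. The smallest falls were those of Psen2, presenilin 2 (-0.81), Gldc, glycine decarboxylase (-0.79), Fpgs, folylpolyglutamate synthase (-0.78), and Tars, threonyl-tRNA synthetase (-0.75). Through transcripts other than the one with the most reads, Insig2, Ddc and Net1 were also called lower and Rnase4 and Ppara higher, which makes 79 genes in all.

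The other lists had no called member. The 80 cytosolic ribosomal protein genes lay between -0.68 and 0.66 with a median of 0.04, and the 36 proteasome subunits between -0.19 and 0.30 with a median of -0.04. The 78 respiratory chain subunits had a median of -0.16, with 13 positive values and 29 genes in which both CT8 libraries lay below both CT4 libraries (19.8% among all genes tested). The 16 tested Mup genes, which encode the major urinary proteins and are near-identical copies, all had positive values with a median of 0.30, and in none of them did the times separate. The Mup transcripts took 50.1% ± 5.01 (SD, n = 2) of the counts at CT4 and 53.5% ± 3.43 at CT8 (two-sided exact permutation test, p = 0.667, where the smallest p that 2 against 2 allows is 0.333). Lists of heat shock chaperones (19 genes, median -0.24), endoplasmic reticulum chaperones (22, -0.04), glucocorticoid response genes (15, 0.25), immediate early genes (9, -0.42), the insulin and growth hormone axis (14, -0.03), amino acid breakdown and the urea cycle (18, 0.07), growth arrest and cell cycle genes (12, 0.15) and the pair Cirbp and Rbm3 (median -0.06) had no call. Cirbp and Rbm3 had the sign of either direction depending on the library left out. Gadd45g, a growth arrest gene, stood at 16.3 CPM in 1 CT4 library and at 0.607 CPM in the other, against 1.79 and 1.19 CPM at CT8. The glucocorticoid-inducible Mt1 (metallothionein 1) had a log2 fold change of 1.93 ± 0.598 (edgeR adjusted p = 0.271), and the corticosteroid-binding globulin gene Serpina6 one of 0.84 ± 0.193 (adjusted p = 0.054).

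**Figure D3:**
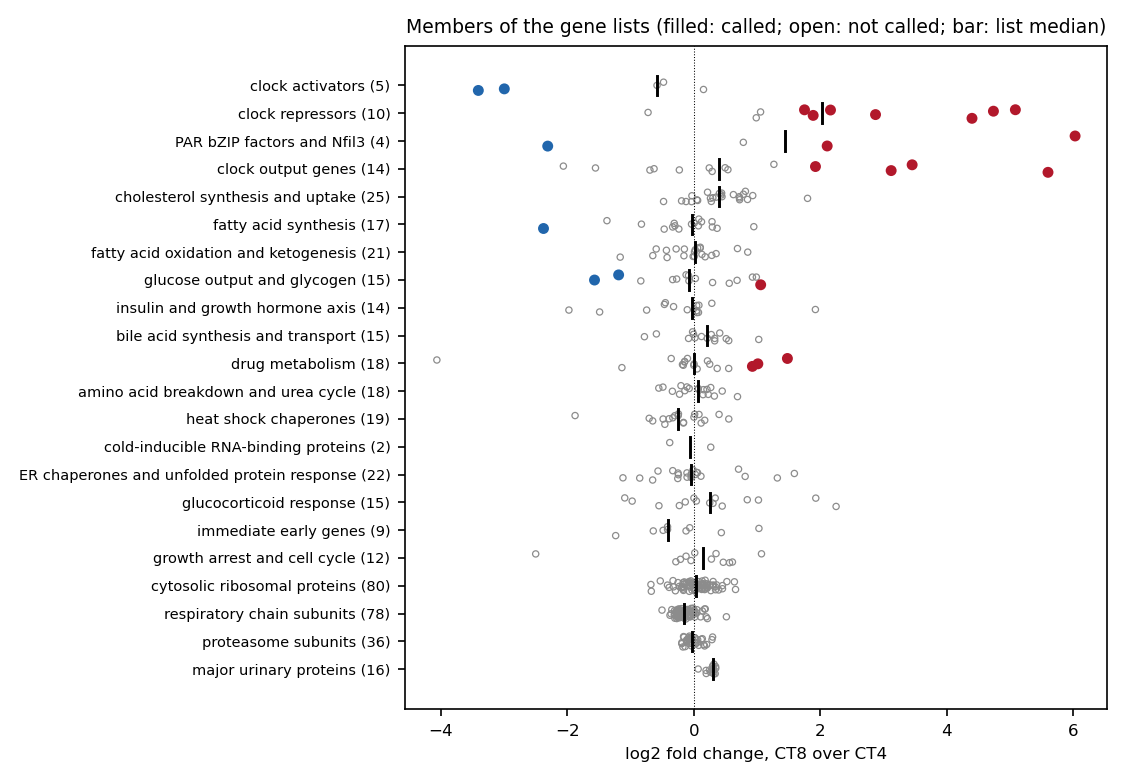
Log2 fold change of CT8 over CT4 for the tested members of each gene list (number in brackets), with called genes filled, the others open, and a black bar at the list median; the vertical scatter has no meaning. Called genes stand in the 3 clock lists and in 4 others, and the medians outside the clock lists lie between -0.42 and 0.40.

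The place of the step in the day was described from the means of the 7 times. The calls themselves put the higher genes low at CT4 and the lower genes low at CT8. The counts of genes with their lowest or highest mean at CT4 or CT8 are therefore a description and no support of their own. Of the 36 higher genes, 28 had their lowest mean at CT4, and the highest mean was at CT8 in 11, at CT12 in 19 and at CT16 in 6. Of the 38 lower genes, 28 had their lowest mean at CT12 and 10 at CT8, and the highest mean was at CT0 in 16 and at CT4 in 9. Dbp was at 0.779 CPM at CT0, 39.5 at CT8, 44.3 at CT12 and 1.24 at CT20. Lpin1 went on rising after the step, from 23.3 CPM at CT8 to 191 CPM at CT12, as did Pfkfb3, from 5.71 to 20.1 CPM. Nr1d1 had its highest mean at CT8, where it stood at 59.7 CPM after 1.93 CPM at CT0 and 28.7 CPM at CT4, so that much of its climb came before the step. The neighbouring steps share libraries with this one and are given only side by side. The share of all genes called in these neighbouring steps is not given here, so nothing is read from the counts. From CT8 to CT12, 12 of the higher genes were called higher again, 14 of the lower genes were called lower again and 1 lower gene was called higher. From CT0 to CT4, 1 of the higher genes was called higher and 4 were called lower, Usp2 among them (-3.51), and none of the lower genes was called.

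**Figure D4:**
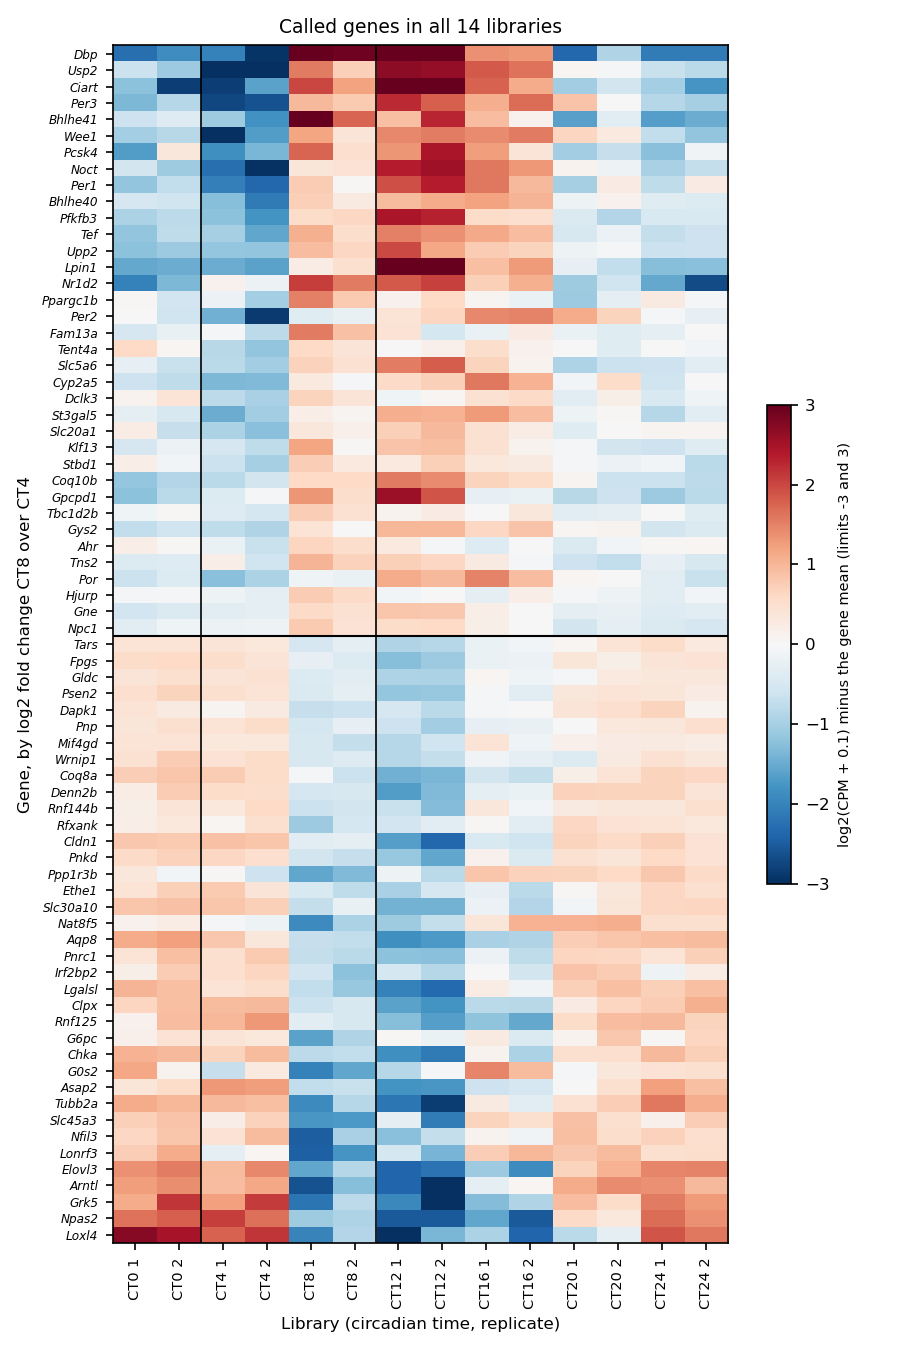
Level of 73 of the 74 called genes (rows, ordered by log2 fold change of the step) in the 14 libraries (columns, by circadian time and replicate), as log2(CPM + 0.1) minus the mean of the gene, with colours limited at -3 and 3. Lines frame the CT4 and CT8 libraries and part the 36 higher from the 37 lower genes shown. The upper rows are mostly low at CT4 and high from CT8 to CT16, though some, such as Fam13a and Hjurp, are high at CT8 only. The lower rows are mostly lowest at CT12.

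The step 12 h later, from CT16 to CT20, uses 4 other libraries. All 36 genes that rose from CT4 to CT8 had a lower mean at CT20 than at CT16, and 36 of the 38 that fell had a higher one, where 51.3% of all genes tested were lower and 48.7% higher at CT20. In that step 10 of the 36 were called lower (0.224% of all genes tested were) and 7 of the 38 were called higher (0.155%). Dbp, for example, changed by -2.83 and Usp2 by -1.74 from CT16 to CT20, while Elovl3 changed by 2.31, Rnf125 by 2.12 and Aqp8 by 1.74. The exceptions were Ppp1r3b and G0s2, both lower at CT20 than at CT16 (-0.13 and -1.09). The difference between the 2 steps was tested in the same edgeR fit and passed for 33 of the 36 and 32 of the 38 genes. Among all genes tested it passed for 1.27%. This difference contains the change by which the 74 genes were called, so the counts are a description and nothing is read from them beside the share of all genes. Over all transcripts 234 passed (1.35%). Without CT20 replicate 2 that number of transcripts was 376, without CT4 replicate 2 it was 120 and without CT8 replicate 1 it was 124. Genes whose step difference did not pass include Ahr (adjusted p = 0.0885), Ppp1r3b (0.185) and G0s2 (0.834). In CT16 replicate 2 all counts above 0 are even, and its part in these values was not tested beyond leaving it out or halving its counts. Without that library 36 of 38 higher genes were lower at CT20 and 35 of 41 lower genes higher. With scaling by the total count 15 of 15 higher genes and 23 of 30 lower genes had the opposite sign in the later step, but 82.0% of all genes were then lower at CT20.

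**Figure D5:**
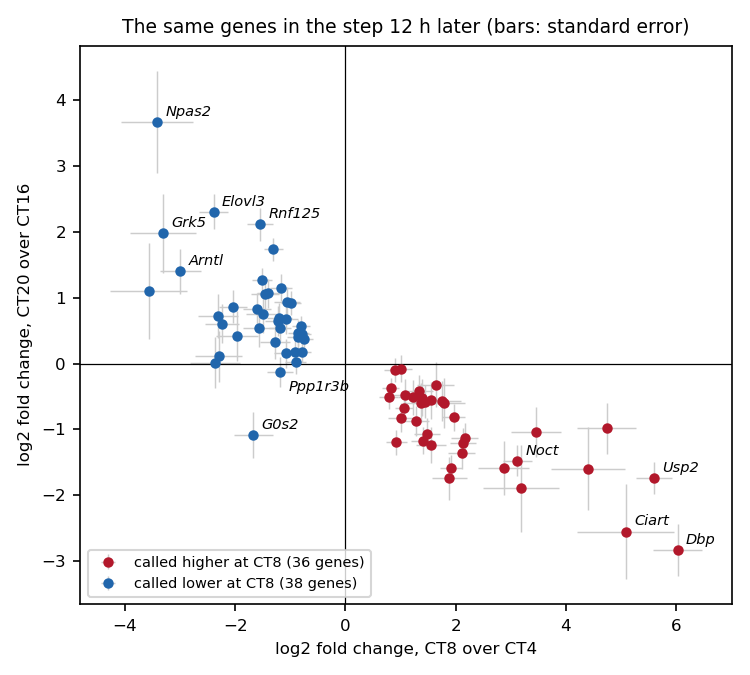
Log2 fold change from CT16 to CT20 against that from CT4 to CT8 for the 36 genes called higher and the 38 called lower at CT8, with SE bars on both axes and selected genes named. All higher genes lie below 0 on the vertical axis, and all lower genes but Ppp1r3b and G0s2 lie above it.

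Whether reads moved between the 5′UTR and the CDS was asked with the log2 ratio of reads in the 5′UTR to reads in the CDS. None of the 7640 transcripts tested with limma passed (0.00%), 87 had an unadjusted p under 0.05, and the smallest adjusted p was 0.999755. Of the 74 called genes 50 were in this test, and none of them had an unadjusted p under 0.05. In Dbp 40.3% of the reads at CT4 and 46.7% at CT8 lay in the 5′UTR, and in Nfil3 14.7% at both times. The smallest p-values belonged to Trim21, a ubiquitin ligase, with 0 and 0 reads in the 5′UTR at CT4 and 14 and 26 at CT8, and to Top1mt, mitochondrial topoisomerase I, with 51 and 10 at CT4 and 0 and 2 at CT8 (log2 ratio 5.14 ± 1.19 and -4.82 ± 1.19, adjusted p = 0.999755 for each). Tsc22d3 and Acaca (higher ratio) and Lima1 and Hagh (lower ratio) came next. Over whole libraries the 5′UTR held 6.91% ± 0.520 (SD, n = 2) of the reads at CT4 and 8.45% ± 0.254 at CT8, the CDS 92.8% ± 0.525 and 91.3% ± 0.235, and the 3′UTR 0.286% ± 0.00427 and 0.220% ± 0.0184. For each region the times did not overlap (two-sided exact permutation test, p = 0.333, the smallest that 2 against 2 allows). Mice of the same time lay further apart elsewhere, with 5′UTR shares of 9.74% and 6.26% at CT20 and of 6.32% and 8.39% at CT12. Over the transcripts of the ratio test the median log2 difference was -0.076, and it was 0.068 without CT8 replicate 2. Without the 10 transcripts with most reads the 5′UTR share was 5.61% at CT4 and 6.36% at CT8.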

How the data were processed

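The authors deposited whole-number read counts per transcript, without normalization, split by transcript region, in 1 file per library. Per the methods and processing notes, reads were checked with FastQC, clipped, freed of rRNA reads with Bowtie2 2.1.0.0 and mapped to mm10, and exact matches were kept with SAMtools 0.1.19.0. Reads placed at a unique location were used for density profiles, and whether this held for the counts, or how reads common to isoforms or gene copies were assigned, is not given in the sources used here. In all libraries 4002 transcripts share their counts with another. The file of CT16 replicate 2 holds 2 sequencing runs, per the labels.

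Groups came from the circadian time in the labels. Region counts were added, and transcripts averaging at least 10 counts over the 14 libraries were fitted with edgeR 4.0.16 in R 4.3.3 (TMM scaling, quasi-likelihood fit of the 7 times, dispersion from all libraries, Benjamini-Hochberg adjustment over all 17299 transcripts, threshold 0.05). SEs are the log2 fold change over the root of the F statistic. With 2 mice per time, the edgeR p-values and SEs set each change against the spread between libraries of the same time. That spread was estimated over all libraries of the series, not from CT4 and CT8 alone. The 5′UTR to CDS ratio (pseudocount 0.5, at least 10 counts in each region) was tested with limma 3.58.1, and DESeq2 1.42.0 was an alternative. RefSeq symbols matched 27840 transcripts.

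Genes given with full values were, among called genes averaging 100 counts or more and not overlapping between the times, the 12 largest rises, the 12 largest falls and the 3 with most counts in each direction, with all members of the clock activator, clock repressor and PAR bZIP lists, and in other lists up to 4 called members or, where none was called, the 2 with the smallest p. For the ratio the 3 smallest p-values in each direction were taken. The remaining called genes are named by their log2 fold change. A few genes that these rules select, 1 of them called, are counted but not reported here by name. The members and lists were chosen with earlier results of these data known. The fits were tested on simulated data. Across transcripts, log2 CPM correlated between the libraries of a time with r = 0.986 at CT4 and 0.985 at CT8, and TMM factors of the 4 libraries ran from 0.766 to 1.10.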

Additional observations from a re-analysis of the deposited data

Results flagged for a closer look

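The change from CT4 to CT8 differed from the change from CT16 to CT20 for 41 of the named genes, by the test of the difference itself in the edgeR fit (Benjamini-Hochberg adjusted over all transcripts). Most of these genes were named because they were called between CT4 and CT8, and the difference contains that change, so their number is no support of its own. The values below are the first change minus the second, on the log2 scale. For the clock repressors they were 7.64 for Ciart, 6.00 for Bhlhe41, 5.72 for Per3, 4.46 for Per1, 3.63 for Nr1d2, 3.29 for Bhlhe40, 3.02 for Nr1d1, 2.32 for Per2 and 1.38 for Cry2. For the activators they were -7.08 for Npas2 and -4.40 for Arntl, and among the D-box factors 8.86 for Dbp, 3.47 for Tef and -3.03 for Nfil3. Clock outputs gave 7.34 for Usp2, 4.60 for Noct, 4.49 for Wee1 and 3.51 for Lpin1.

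In metabolism the differences were 3.33 for Pfkfb3, 2.78 for Upp2, 1.73 for Gys2, -2.11 for G6pc, -4.70 for Elovl3, -2.43 for Chka and -1.91 for Coq8a. They were 2.54 for Cyp2a5, 2.12 for Por, 2.17 for Cyp7a1, -1.80 for Cyp8b1 and 1.61 for Cpt1a. Other genes gave 5.08 (Pcsk4), -5.29 (Grk5), -4.67 (Loxl4), -3.67 (Rnf125), -2.90 (Asap2), -2.84 (Tubb2a) and -2.41 (Slc45a3). Mt1 gave 4.67, Herpud1, a gene of the unfolded protein response, 1.45, Serpina6 1.29 and Dnaja1, a cochaperone of HSP70, 1.21. Of these genes Serpina6, Cpt1a, Cry2, Cyp8b1, Cyp7a1, Mt1, Nr1d1, Herpud1 and Dnaja1 were not called between CT4 and CT8 alone.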

How the results depend on the processing

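Between CT4 and CT8, 127 transcripts were called, 69 higher and 58 lower. Scaling by the total count gave 76 calls with 33 higher, 1 transcript per gene 61 (30 higher, 31 lower), and DESeq2's Wald test 235 (117 and 118). Leaving out 1 library gave 43 to 132 calls, 29 to 71 higher and 14 to 61 lower. The upper ends of these ranges came from leaving out CT16 replicate 2, which is not part of the step. Leaving out any of the 4 libraries of the step lowered the number of transcripts called, both higher and lower. The cause was not tested. For the difference from the later step, 234 calls became 120 with scaling by the total count, 137 with 1 transcript per gene, 428 with the Wald test, and 120 to 376 without 1 library. The replicate numbers were not taken as pairs: the correlation of same-numbered deviations was 0.147 for CT4 and CT8, but over 21 pairs of times it ran from -0.11 to 0.27, with 3 over 0.1, and a fit with the replicate block called 149 transcripts. The ratio test called 0 transcripts under every alternative run. Halving the counts of CT16 replicate 2, chosen after seeing the data, gave 131 and 232 calls. Of the 35 named genes that were called, 14 passed under every alternative. None changed sign, but in each of them both CT8 libraries lay on the same side of both CT4 libraries. Leaving out 1 library could therefore hardly turn a sign, and nothing is read from this. Of the 37 that were not called, 11 passed under some alternative and 4 changed sign: with scaling by the total count Rora went to -0.068 and Rbm3 to -0.046, and without 1 library Gadd45g ranged from -3.44 to 1.29, Cirbp from -1.18 to 0.12 and Rbm3 from -0.35 to 1.39. With 2 mice per time, the smallest called changes were 0.79 and -0.75 on the log2 scale.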
